A study of Homo sapiens with 4 samples.

Results

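The KRAB zinc finger gene clusters of human chromosome 19 were examined in the neuroblastoma cell line SH-SY5Y for binding of CHD5 and for the histone mark H3K27me3. Members were chosen by position alone: a row of either list of enriched regions belonged to a cluster when its midpoint fell in 1 of 7 intervals of build hg19. Numbered from the short-arm end, these ran from 8.9 to 10 Mb, 11.65 to 12.6 Mb, 19.8 to 24.4 Mb, 36.65 to 38.35 Mb, 44.3 to 45 Mb, 52.35 to 54 Mb and 56.1 to 58.95 Mb, the imprinted PEG3 interval from 57.3 to 57.37 Mb being left out. They spanned 13.48 Mb, or 22.8% of the chromosome, and held 900 of the 289616 rows of both lists, namely 34 of 32543 CHD5 peaks and 866 of 257073 H3K27me3 regions. The rest of chromosome 19, 45.6 Mb, held 732 CHD5 peaks and 8403 H3K27me3 regions.

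The series has 4 libraries, 1 per group, from cells given 10 uM retinoic acid for 8 days, a treatment that drives this line toward a neuron-like state. Cells expressing FBio-CHD5 gave a streptavidin pull-down of that protein, an H3K27me3 precipitation and an input, and cells expressing FBio-Ctrl gave a control pull-down. The CHD5 and H3K27me3 lists were used, and no list of the control pull-down or the input was analysed here. CHD5 was therefore seen only as an expressed, captured construct in 1 cell line, every group carried retinoic acid, and no untreated cells were compared. The lists give positions, widths and a score per region but no read counts, so depth is unknown and no value has a replicate error. Densities carry exact Poisson 95% intervals and shares carry exact binomial 95% intervals. These cover counting error only and treat neighbouring regions as independent, so they can be too narrow. No p-value is given.

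KRAB zinc finger proteins are DNA-binding repressors. Their arrays of zinc fingers read DNA sequence, often in transposable elements, and the KRAB box binds TRIM28, which brings in SETDB1 to write H3K9me3. The genes arose by tandem duplication and lie side by side on chromosome 19, where the gene bodies themselves are known to carry H3K9me3 in many cell types. H3K27me3 is another repressive mark, written by the Polycomb complex PRC2 and typically found at CpG-rich promoters of silent developmental genes. CHD5 is a nucleosome remodeller with chromodomains that is expressed mainly in the nervous system. H3K9me3 was not measured in this series.

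Gene order was taken from RefSeq on GRCh38.p14, another build than that of the lists, so runs of genes were set beside the intervals from general knowledge of their end genes, and no position below is assigned to a gene. RefSeq lists 1451 protein-coding genes on the chromosome, of which 255 have symbols that begin with ZNF or ZFP. The 7 runs, from ZNF558 to ZNF846, ZNF627 to ZNF709, ZNF14 to ZNF254, ZNF565 to ZNF573, ZNF283 to ZNF180, ZNF577 to ZNF813 and ZNF524 to ZNF132, hold 215 of these among 272 protein-coding genes. The second run is made of 21 ZNF genes and the fifth of 20, with no other gene among them. Other runs are mixed. The first run has 7 olfactory receptor genes and MUC16 beside 13 ZNF genes, with all of these receptor genes before ZNF699 in the order. The sixth has the pheromone receptor genes VN1R2 and VN1R4 late among 39 ZNF genes. The seventh has 57 ZNF or ZFP genes and 6 NLRP genes, NLRP9 to NLRP5, which come early in the run and are known for their expression in the germ line.

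Since H3K27me3 usually sits on CpG-rich promoters, promoter sequence was examined as background for the levels that follow. RefSeq promoters, from 250 bases before to 50 after the start, were matched for 185 of the 215 ZNF and ZFP genes. The ratio of observed to expected CpG, which is the number of CpG times the length over the product of the C and G counts, exceeded 0.6 in 142 of them, or 76.8% (interval 69.996% to 82.6%), against 59.8% of 963 other promoters of chromosome 19 and 65.7% of 15843 protein-coding promoters in all. The median ratio was 0.759 for the 185, 0.731 for the other promoters of chromosome 19 and 0.763 for all protein-coding promoters. By the median, the 185 were thus not above promoters in all. Their median GC content was 59%, against 64% and 62.7%. The third run stood low, with 4 of 28 promoters above a ratio of 0.6 and a median of 0.437, while the sixth had 32 of 32 and a median of 0.841. The second had 10 of 20. Neither the 5 olfactory receptor promoters of the first run nor the only matched vomeronasal one of the sixth exceeded the ratio, and 1 of 5 NLRP promoters did. Below are 3 promoters as examples, written from 5′ to 3′ on the gene's strand with each CpG in capitals. ZNF91 was chosen by name and the others by ratio, and the 3 do not span the full range. ZNF91, in the third run, encodes a repressor of primate retrotransposons, and its promoter (GRCh38.p14, chr19:23395422-23395721, minus strand) holds 11 CpG at a ratio of 0.448. ZNF793, in the fourth run, has the ratio nearest the median of all 185, 0.759 from 16 CpG (chr19:37506689-37506988, plus strand). NLRP11, in the seventh run, has the median ratio of the NLRP genes, 0.471 from 10 CpG (chr19:55836526-55836825, minus strand).
ZNF91: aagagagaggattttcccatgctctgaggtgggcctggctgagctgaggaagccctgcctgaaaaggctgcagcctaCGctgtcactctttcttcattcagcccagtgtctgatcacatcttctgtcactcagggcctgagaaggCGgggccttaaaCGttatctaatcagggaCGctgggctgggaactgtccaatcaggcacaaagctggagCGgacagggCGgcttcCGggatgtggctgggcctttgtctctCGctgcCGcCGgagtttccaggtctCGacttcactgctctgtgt
ZNF793: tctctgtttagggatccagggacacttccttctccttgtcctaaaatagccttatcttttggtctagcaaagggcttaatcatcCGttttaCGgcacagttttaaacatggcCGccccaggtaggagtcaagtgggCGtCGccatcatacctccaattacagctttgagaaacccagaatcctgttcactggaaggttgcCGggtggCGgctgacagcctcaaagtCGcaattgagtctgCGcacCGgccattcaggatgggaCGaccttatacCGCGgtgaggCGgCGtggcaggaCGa
NLRP11: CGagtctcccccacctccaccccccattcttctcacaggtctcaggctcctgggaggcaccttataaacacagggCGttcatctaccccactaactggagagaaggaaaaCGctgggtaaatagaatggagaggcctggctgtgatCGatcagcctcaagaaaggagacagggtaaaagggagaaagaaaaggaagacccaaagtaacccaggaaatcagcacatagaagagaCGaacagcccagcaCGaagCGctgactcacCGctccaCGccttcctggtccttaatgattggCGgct

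Both profiles were sparser in the clusters than in the rest of the chromosome. CHD5 peaks numbered 2.52 per Mb (interval 1.75 to 3.52) in the clusters and 16.1 per Mb (14.9 to 17.3) in the rest of the chromosome, a ratio of 0.157 (0.108 to 0.221). With 22.8% of the length, the clusters held 4.44% of the 766 CHD5 peaks of the chromosome. H3K27me3 regions numbered 64.2 per Mb (60.04 to 68.7) in the clusters and 184 per Mb (180 to 188) in the rest, a ratio of 0.348 (0.324 to 0.374), and the clusters held 9.34% of the 9269 regions of the chromosome. Covered length gave the same picture. CHD5 peaks covered 3.57 kb per Mb in the clusters and 25.3 kb per Mb in the rest, a ratio of 0.141. H3K27me3 regions covered 19.3 kb per Mb in the clusters and 57.04 kb per Mb in the rest, a ratio of 0.339.

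The ratio for H3K27me3 depended on what the clusters were set against. The other autosomes had 81.7 H3K27me3 regions per Mb, fewer than the rest of chromosome 19, and against them the ratio for the clusters was 0.786. For CHD5 the other autosomes had 11.2 peaks per Mb and the ratio was 0.226. Each of these chromosomes was counted from its start to its last row, with stretches without rows left in. Against the sequence of chromosome 19 within 1 Mb of a cluster, the ratio was 0.227 for H3K27me3 regions and 0.174 for CHD5 peaks.

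**Figure D1:**
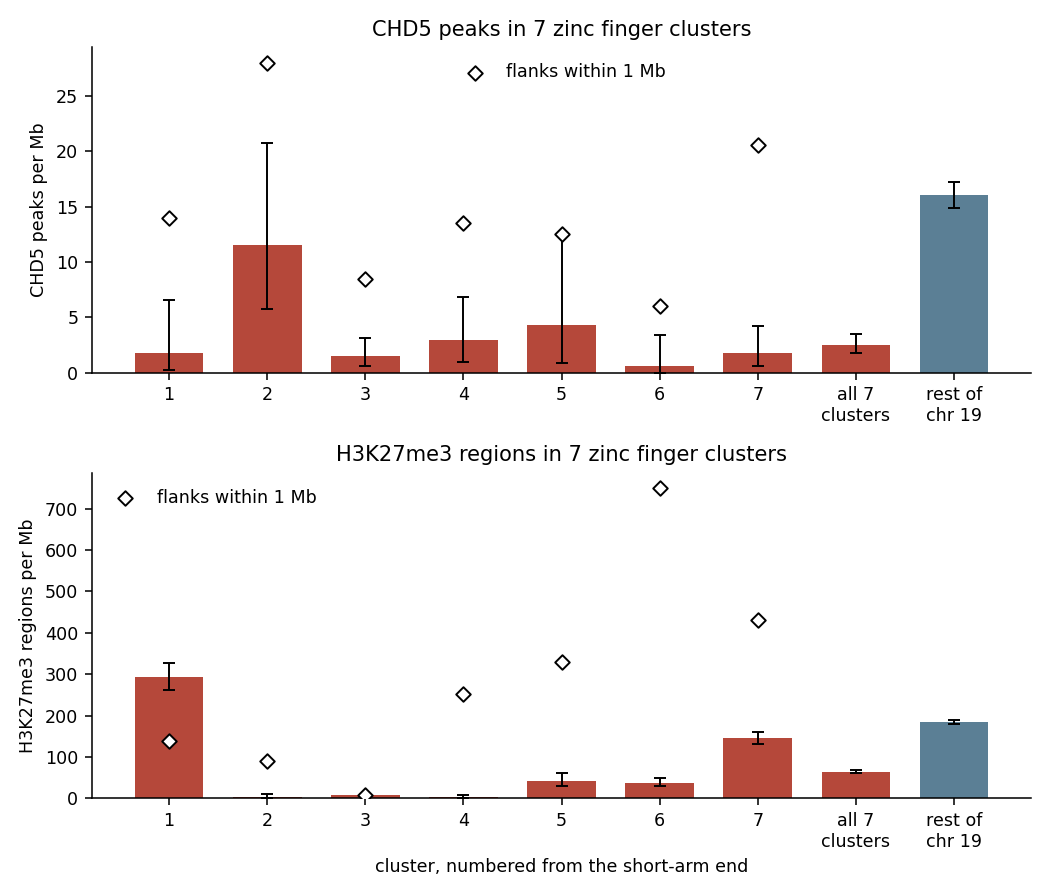
CHD5 peaks (upper panel) and H3K27me3 regions (lower panel) per Mb in each cluster, in all 7 clusters and in the rest of chromosome 19; bars start at 0, error bars are exact Poisson 95% intervals and diamonds give the sequence within 1 Mb on either side of a cluster. All 7 clusters lie below their flanks for CHD5, while for H3K27me3 cluster 1 lies above its flanks. Cluster 3 differs little from its flanks in H3K27me3. These flanks reach into the widest stretch of the chromosome without a row of either list, which lowers their density.

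CHD5 density was low in every cluster except the second. Cluster 2 held 11 of the 34 peaks at 11.6 per Mb (interval 5.78 to 20.7), and its flanks within 1 Mb had 28 per Mb. The other clusters had between 0.606 and 4.29 peaks per Mb. Cluster 6 held a single peak in 1.65 Mb, 0.606 per Mb (0.0153 to 3.38) against 6 per Mb in its flanks. Cluster 3, the largest at 4.6 Mb, had 1.52 peaks per Mb against 8.5 in its flanks, and cluster 7 had 1.80 against 20.6. Clusters 1, 4 and 5 had 1.82, 2.94 and 4.29 peaks per Mb, against 14, 13.5 and 12.5 in their flanks. Without cluster 2 the CHD5 coverage of the clusters relative to the rest was 0.0923, in place of 0.141.

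H3K27me3 varied far more between clusters. It was densest in cluster 1, with 294 regions per Mb (interval 262 to 327) against 138 in its flanks. Cluster 1 thus also exceeded the rest of the chromosome, at 184 per Mb, and no other cluster did. Cluster 7 followed with 145 (131 to 160) against 431 in its flanks. Clusters 5 and 6 had 42.9 and 38.2 per Mb, against 329 and 748.5 in their flanks. Clusters 2 and 4 had only 3 and 7 regions, or 3.16 and 4.12 per Mb, against 89 and 251.5 in their flanks. Cluster 3 had 37 regions, or 8.04 per Mb, and its flanks had 8.5. The flanks of cluster 3 reach into the widest stretch of the chromosome without a row of either list, 3112 kb from 24631782 to 27744061. Without cluster 7 the H3K27me3 coverage of the clusters relative to the rest was 0.205, in place of 0.339.

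Windows dense in H3K27me3 were fewer in the clusters than in the rest of the chromosome. Chromosome 19 was divided into windows of 100 kb, 135 of them in the clusters and 456 in the rest. They were placed by their midpoint, with the PEG3 interval kept in. Their region counts therefore differ slightly from those of the intervals. A window with 10 or more H3K27me3 regions was found in 15 of 135 cases in the clusters (11.1%), against 159 of 456 in the rest (34.9%) and 29.4% of all windows of the chromosome. These 15 windows formed 6 blocks and held 776 of the 868 regions counted in the cluster windows, or 89.4%. In the rest, the 159 such windows held 8128 of 8400 regions, or 96.8%, so a concentration of the mark in dense windows was not particular to the clusters. By cluster, only cluster 1 exceeded the share of dense windows in the rest, with 6 of its 11 windows (54.5%). Dense windows held 51.7 regions each on average in the clusters and 51.1 in the rest. The other 120 cluster windows held 92 regions, or 7.67 per Mb, against 9.16 per Mb in the other windows of the rest. A single H3K27me3 region was enough to mark a window in 65 of 135 cases in the clusters (48.1%), against 234 of 456 in the rest (51.3%) and 50.6% of all windows. These shares are close to each other, unlike those of dense windows. At least 1 CHD5 peak lay in 24 of 135 cluster windows (17.8%), against 282 of 456 in the rest (61.8%) and 51.8% of all. Neither profile had a row in 58 cluster windows (43.0%), against 66 in the rest (14.5%) and 21% of all.

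The largest block lay in cluster 7 from 56200001 to 56800000, with 392 regions in 600 kb. The next lay in cluster 1 from 9100001 to 9400000, with 254 regions in 300 kb. Smaller blocks were found in cluster 6 from 53700001 to 53900000 with 53 regions, in cluster 1 from 8900001 to 9000000 with 32 and from 9700001 to 9900000 with 27, and in cluster 5 from 44900001 to 45000000 with 18. Clusters 2, 3 and 4 had no such window, and the fullest of their windows held 1, 5 and 2 regions. Which genes the blocks cover was not analysed here.

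**Figure D2:**
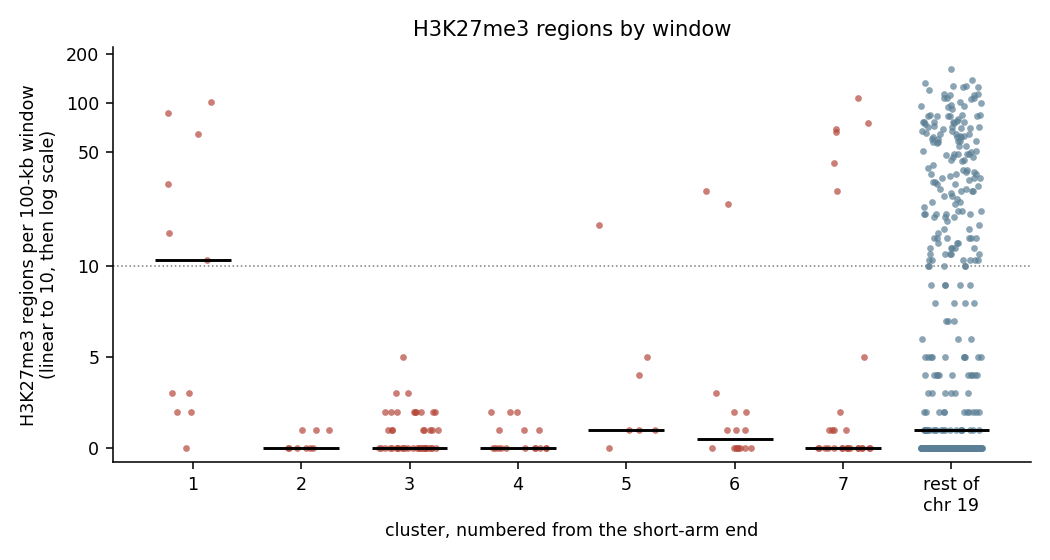
H3K27me3 regions in each 100-kb window of the 7 clusters and of the rest of chromosome 19 (points, spread sideways for visibility; black lines are medians; the axis is linear to 10 and logarithmic above). Clusters 2, 3 and 4 have no window with 10 or more regions, and windows above that line in the other clusters reach 102 in cluster 1 and 107 in cluster 7.

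The intervals were set by position, so levels on either side of their borders were compared. In the outermost 100 kb inside the borders there were 7 CHD5 peaks, or 5 per Mb (interval 2.01 to 10.3), against 18 in the first 100 kb outside, or 12.9 per Mb (7.62 to 20.3). H3K27me3 regions numbered 61 inside, or 43.6 per Mb (33.3 to 55.97), and 175 outside, or 125 per Mb (107 to 145). Over all bins of 100 kb, CHD5 ranged from 1.54 to 6.43 per Mb inside, down to a depth of 500 kb, and from 5.22 to 20.9 per Mb outside, up to 1000 kb away. H3K27me3 ranged from 43.6 to 154 per Mb inside and from 125 to 427 per Mb outside. These ranges overlap for both profiles.

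**Figure D3:**
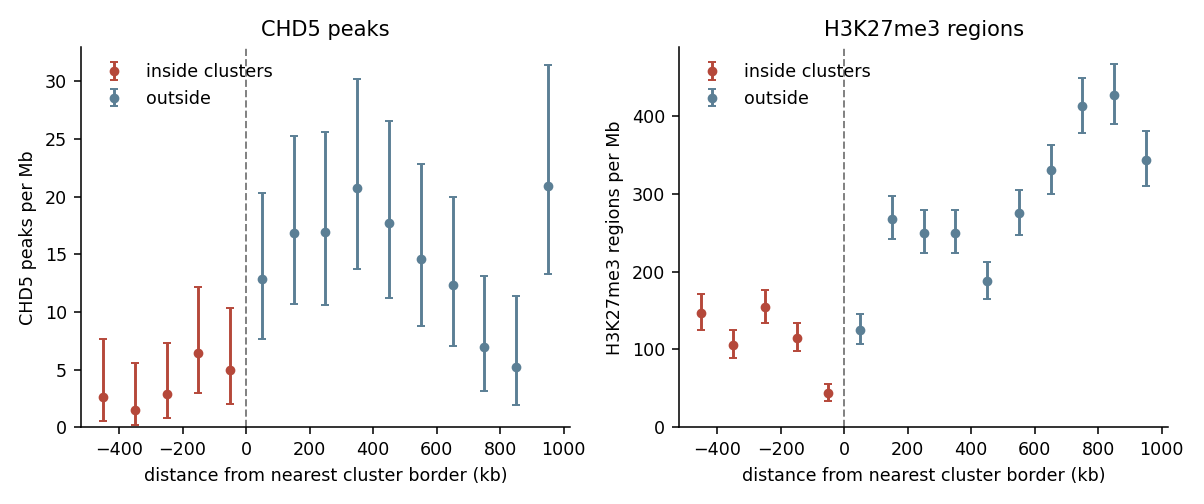
Density of CHD5 peaks (left) and H3K27me3 regions (right) by distance from the nearest cluster border, in bins of 100 kb summed over all borders; negative distances are inside the clusters and error bars are exact Poisson 95% intervals. CHD5 is at most 6.43 per Mb in every bin inside, and H3K27me3 is lowest, at 43.6 per Mb, in the bin just inside the border.

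The 34 CHD5 peaks of the clusters were of ordinary median width, but a smaller share of them had high scores. Their median width was 1268.5 bp (quartiles 1048 and 1723.5) against 1340 bp (1043 and 1802) in the rest, a difference of -71.5 bp, and the median of the rest lies within the interval of the cluster median, 1076 to 1667 bp. The widest cluster peak measured 2190 bp, and 105 of 732 peaks in the rest (14.3%) were wider. The score, which belongs to the authors' peak caller and is comparable only within its list, had a median of 84.99 in the clusters and 100.3 in the rest. Scores at or above 117, the median of all CHD5 peaks, were found in 7 of 34 cluster peaks (20.6%, interval 8.70% to 37.9%) and in 306 of 732 peaks of the rest (41.8%, 38.2% to 45.5%). The highest cluster score was 241, above 171, the upper quartile of the rest. That maximum was exceeded by 104 peaks of the rest (14.2%) and, by its definition, by no cluster peak.

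The spacing of CHD5 peaks differed within and between clusters, with gaps between neighbours from 0.163 to 1668 kb. In cluster 1 both peaks lay at the long-arm side, from 9896412 to 9897647 and from 9903432 to 9904690, with 5.78 kb between them and scores of 104 and 106. The nearest H3K27me3 region was 42.9 kb from the peak that starts at 9896412. In cluster 2 the 11 peaks were spread from 11669999 to 12512255, with gaps between neighbours of 22.5 to 240 kb. The highest score there, 208, belonged to the peak from 12034251 to 12036407, which was also the nearest to a region, at 10.7 kb. That peak was 2157 bp wide. The 7 peaks of cluster 3 included the highest score of all clusters, 241, from 21785359 to 21787368. A second peak from 21787532 to 21788367 followed it after 0.163 kb, and this one lay nearest to H3K27me3, at 15.5 kb. The remaining 5 peaks of cluster 3 scored 51.4 to 74.3.

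In cluster 4 the peaks fell at the ends, 2 of them at 36659822 to 36661078 and 36868873 to 36870146 and 3 from 38144651 to 38243045. The first of these had the highest score, 135, and the shortest distance to a region, 77.4 kb. The 3 peaks of cluster 5 lay within 98.1 kb. That from 44859888 to 44862077 scored highest, at 88.3, was the widest cluster peak and lay nearest to H3K27me3, at 5.77 kb. The single peak of cluster 6, from 53897236 to 53898326, scored 50.03, close to the lowest score in the list, 50, and lay 74.9 kb from a region. In cluster 7 all 5 peaks lay before 56782992, and none was found in the remaining 2.17 Mb. The highest score, 110, was at 56143075 to 56144741, and the shortest distance to a region, 16.4 kb, was at 56772204 to 56773167.

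H3K27me3 regions had nearly the same width in clusters and rest, with medians of 224.5 and 224 bp, and similar scores, with medians of 89.4 and 86.4. They differed in how they were grouped. Regions up to 3 kb apart were joined into domains, of which the clusters had 115, or 8.53 per Mb (interval 7.04 to 10.2), and the rest 784, or 17.2 per Mb (16.0 to 18.5). A lone region made up 61 of the 115 cluster domains (53.0%), against 191 of 784 in the rest (24.4%) and 38.7% of domains on all chromosomes. The median domain width was 255 bp in the clusters (interval 204 to 1503) and 3385.5 bp in the rest (2849 to 4059). Medians of single clusters ran from 164.5 bp in clusters 3 and 4 to 1914 bp in cluster 7 and 2966 bp in cluster 1. Domains of at least 5 kb numbered 30 in the clusters, 26.1% of them (18.3% to 35.1%), against 322 in the rest, or 41.1% (37.6% to 44.6%), and 26.4% on all chromosomes, so the cluster share is near that of the genome. Per Mb there were 2.23 such domains in the clusters and 7.07 in the rest, a ratio of 0.315 (0.209 to 0.458). They held 85.5% of the regions of the cluster domains and 85.9% of those of the rest. When only regions with scores at or above the list median were joined, the difference in median width turned, with 3897 bp for 67 cluster domains and 2707 bp for 731 domains of the rest. The joining distance also moved these values. Joining across 10 kb gave a domain density ratio of 0.853, in place of 0.496, and the difference in median width was -638.5 bp at 1 kb and -8097.5 bp at 10 kb, in place of -3130.5 bp.

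The widest domain differed greatly between clusters. In cluster 7 it spanned 86.1 kb from 56226283 to 56312395, with 117 regions and a top score of 3202, and 2 more spanned 46.6 kb from 56682153 to 56728746 and 38.3 kb from 56518667 to 56556985. In cluster 1 it spanned 54.8 kb from 9191560 to 9246348, with 67 regions and the nearest CHD5 peak 545 kb away. In cluster 6 it spanned 21.8 kb from 53800529 to 53822329, beside a second of 17.8 kb that ended at 53792044. In cluster 5 it spanned 9.52 kb from 44913259 to 44922780, with 8 regions and a top score of 1898, and lay 7.37 kb from a CHD5 peak. In cluster 3 it spanned 5.07 kb from 22757978 to 22763049, with 4 regions. In clusters 4 and 2 the widest spanned 1368 bp from 37601326 to 37602693 and 262 bp from 12118722 to 12118983. The widest domain of the rest of the chromosome spanned 142 kb.

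Long stretches without a row of either list made up much of the clusters. Stretches of at least 100 kb took 68.1% of the cluster length, against 27.3% of the rest. The figure for the rest includes its single stretch of 3112 kb, from 24631782 to 27744061. Among clusters, the share was 82.9% in cluster 4, 81.5% in cluster 6, 78.8% in cluster 3 and 70.4% in cluster 7. It was 36.8% in cluster 5, 36.3% in cluster 2 and 21.7% in cluster 1. The longest in each cluster, in order, ran from 9569401 to 9698782, 12164266 to 12404034, 22068526 to 22752364, 36870147 to 37193746, 44551982 to 44708755, 53250285 to 53770102 and 57694552 to 58241257. The longest of these measured 684 kb, in cluster 3, and the shortest 129 kb, in cluster 1. The part played by repeated sequence, where short reads are hard to place, was not tested.

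No CHD5 peak of the clusters overlapped H3K27me3. The count was 0 of 34, which allows a share of up to 8.82% by a limit of 3 counts and up to 10.3% by the exact binomial interval, against 28 of 732 in the rest, or 3.83% (interval 2.56% to 5.48%), and 2.19% of peaks on all chromosomes. A difference of this size was not detectable with 34 peaks. Within 10 kb of a region lay 2 cluster peaks, both in cluster 5, or 5.88% (0.720% to 19.7%), against 119 in the rest, or 16.3% (13.7% to 19.1%), and 7.77% on all chromosomes. Within 100 kb lay 23 cluster peaks, or 67.6% (49.5% to 82.6%), against 407 in the rest, or 55.6% (51.9% to 59.2%), and 35.2% on all chromosomes. The median distance from a CHD5 peak to the nearest region was 66.7 kb in the clusters (28.1 to 102) and 79.3 kb in the rest (66.1 to 89.4), and these intervals overlap. With scores at or above the list median in both lists, it was 257 kb for 7 cluster peaks and 113 kb for 306 peaks of the rest, so the direction was not stable. Seen from the other list, the median H3K27me3 region lay 184 kb from the nearest CHD5 peak in the clusters (166 to 196) and 86.6 kb in the rest (84.4 to 88.8). In cluster 1 that median was 528 kb and in cluster 7 it was 119 kb. Windows with 10 or more H3K27me3 regions, 11.1% of those in the clusters, held 6 of the 34 peaks, or 17.6% (interval 6.76% to 34.5%). In the rest such windows, 34.9% of all, held 148 of 732 peaks, or 20.2% (17.4% to 23.3%).

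**Figure D4:**
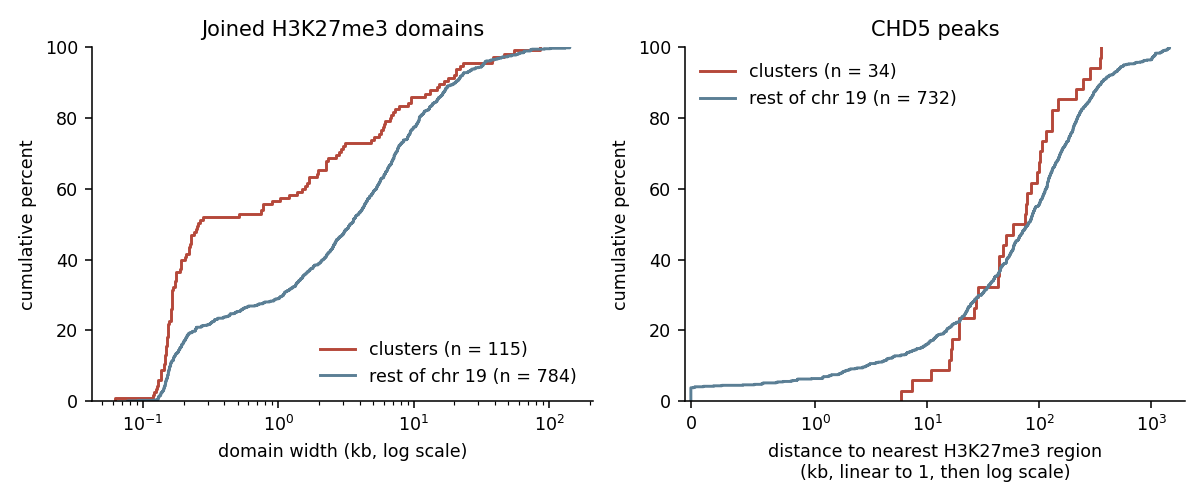
Cumulative percent of joined H3K27me3 domains by width (left, log axis) and of CHD5 peaks by distance to the nearest H3K27me3 region (right, linear to 1 kb, then logarithmic), in the clusters and in the rest of chromosome 19. Cluster domains are shifted to short widths in the full list, with a median of 255 bp against 3385.5 bp. This difference turned when only regions with scores at or above the list median were joined. The distances of CHD5 peaks have medians of 66.7 and 79.3 kb, and the cluster curve starts at 5.77 kb.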

How the data were processed

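Chromatin immunoprecipitation sequencing of SH-SY5Y cells gave 4 libraries, grouped by title, with 1 per group. Both deposited lists hold MACS peaks called on 1 named library, per the file headers. The build is hg19, taken from the submitters' processing notes. For MACS, its version, threshold and background library, and for the reads, the aligner and the treatment of multiple matches, are not stated in any label or header. The last can lower counts in duplicated sequence, and a caller of narrow peaks can split a broad mark. Each row carries the authors' score, deposited without a stated scale, with a lowest value of 50. Positions are counted from 1, and the rest of chromosome 19 ends with the last row of the lists. Overlap needs 1 bp, and distances run from edge to edge. Values were computed in Python 3.11.15 (scipy 1.17.1, pandas 2.3.3, numpy 2.4.6) and drawn with matplotlib 3.10.9. Routines were tested on simulated data, and overlaps and domains matched bedtools 2.31.1 (712 peaks, 38537 domains). Medians carry order-statistic 95% intervals. The text names, per cluster, the CHD5 peak of highest score, that nearest to H3K27me3, the widest domain and the longest empty stretch. The intervals, measures and alternatives were chosen with earlier results of these data known, and windows, blocks and the border comparison were added after the data were seen. Genome sequence of build hg19 was not used here, so no peak sequence is printed.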

Additional observations from a re-analysis of the deposited data

How the results depend on the processing

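No value has a test, so each was read against a band. Count ratios used their exact 95% interval and coverage ratios that of the count ratio of the same list. Differences of medians used a band as wide as the cluster median's interval, centred on the difference, and the overlap share used the binomial limit. Across 160 alternatives, 122 values stayed within the band, 37 left it and 1 changed sign where the band had left out no difference. Sign changes of values whose band held 0 are not in that 1. The lower densities kept their direction in all alternatives run. Ratios below are clusters over rest. Against the other autosomes they were 0.226 for CHD5 peaks, 0.786 for H3K27me3 regions, 0.685 for H3K27me3 coverage and 0.731 for domains, and the differences of medians were -391.5 bp for CHD5 width, -16.5 bp for region width, -1510 bp for domain width and -104 kb for distance. Within 1 Mb of a cluster, H3K27me3 regions gave 0.227, coverage 0.219 and domain width -4298.5 bp. With scores at or above the list median, CHD5 peaks gave 0.0773, CHD5 coverage 0.0686, domains 0.310 and distance 144 kb, from 7 cluster peaks, and the domain width turned to 1190 bp. Of the 61 single-region cluster domains, 55 lie below that score (90.2%), against 164 of 191 in the rest (85.9%). Joining across 1 kb gave 0.401 for domains and -638.5 bp for their width, and across 10 kb 0.853 and -8097.5 bp. Borders moved outward by 100 kb gave 0.376 for H3K27me3 regions and 0.413 for coverage. The rest without its widest empty stretch gave 0.315 for coverage. The long-arm clusters alone gave 0.399, 0.444 and 26 bp for H3K27me3 regions, coverage and region width. Apart from these constructions, the cause was not tested.

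Leaving out each cluster in turn gave 0.114 to 0.189 for CHD5 peaks, 0.0923 to 0.179 for CHD5 coverage, 0.235 to 0.506 for H3K27me3 regions, 0.205 to 0.501 for their coverage and 0.408 to 0.569 for domains. Differences of medians ran from -104 to 92 bp for CHD5 width, -14 to 16 bp for region width, -3163.5 to -2351.5 bp for domain width and -31.5 to -4.07 kb for distance. The overlap share stayed at -3.83 percentage points, which was fixed beforehand because no cluster peak overlaps H3K27me3. These fixed values are among the 122 that stayed within the band and say nothing about stability. The differences in CHD5 width, region width and distance were small against their intervals and their signs were not stable: CHD5 width gave 92 bp without cluster 3, 30.5 bp within 1 Mb of a cluster and 188.5 bp at the higher scores, and distance gave 15.2 kb within 1 Mb. No paired analysis was possible because each group has 1 library. Depth is unknown, so it cannot be said how many weaker regions the lists miss.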

Other observations

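After the values were seen, clusters were set side by side by their content. Clusters 2, 3 and 4, with 53.8% of the cluster length, held 23 of the 34 CHD5 peaks (67.6%) and 47 of the 866 H3K27me3 regions (5.43%), or 3.17 peaks and 6.48 regions per Mb. Clusters 1 and 7, with 28.8% of the length, held 7 CHD5 peaks (20.6%) and 726 H3K27me3 regions (83.8%), or 1.80 peaks and 187 regions per Mb. By arm, the 3 short-arm clusters had 3.01 CHD5 peaks per Mb (interval 1.84 to 4.64) and 54.6 H3K27me3 regions per Mb, and the 4 long-arm clusters had 2.05 (1.12 to 3.44) and 73.6. These groupings were formed from the same values and carry no test.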
